A study of Mus musculus with 6 samples.

Results

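Polycomb group genes were followed in RNA of juvenile mouse testes. The 37 genes were taken by symbol (GENCODE M21) from a read-count table of 55487 gene identifiers. They encode subunits of Polycomb repressive complex 2 (PRC2, 11 genes), subunits and partners of PRC1 (21 genes) and further proteins with MBT domains (5 genes). All 37 were found, and all 37 passed the filter on low counts, so they are described among 19826 tested genes. Polyadenylated RNA came from testes of 6 mice at postnatal day 19, 3 per group. The group labelled control has no further genotype in the labels, and the group labelled dsfb carries, per the title of the series, SFB alleles at both Hormad1 and Hormad2 on both chromosomes. Their products sit on the meiotic chromosome axis. The comparison of dsfb with control asks how the transcriptome differs when both genes carry that allele.

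Polycomb proteins keep genes silent by marking histones. PRC2 methylates H3K27 through its catalytic subunit EZH1 or EZH2, held by EED and SUZ12. PRC1 attaches ubiquitin to histone H2A through RING1 or RNF2. In its canonical form a CBX protein reads the PRC2 mark, while its variant forms carry RYBP or YAF2 in place of a CBX protein and are sorted by their PCGF subunit. In the male germ line these complexes are known for silencing somatic and meiotic genes in spermatogonia and for their part in changing chromatin states as cells enter and pass through meiosis.

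The control libraries were the deeper ones, with 24.0 to 27.7 M counted reads against 15.3 to 17.3 M in dsfb. Whole testes were sequenced, and the cell mixture differed between the groups as read from marker genes. Each of 14 mid to late pachytene markers fell, and their sum was 8192 to 10920 CPM in control and 509 to 517 CPM in dsfb, where CPM are reads per 1 M on TMM-scaled library sizes. All 12 tested of 13 spermatid markers fell (334 to 1113 against 32.7 to 38.7 CPM), and Catsper1 was at 0 counts in dsfb. Of 15 Sertoli cell markers 14 rose and 0 fell (3509 to 4607 against 8231 to 8649 CPM). Of 7 markers of differentiating spermatogonia 6 rose and Dmrtb1 fell. Their sum was 730 to 916 CPM in control and 477 to 528 CPM in dsfb, and without Dmrtb1, left out after the values were seen, it was 207 to 299 and 431 to 486 CPM. Of 10 markers of early meiotic prophase 4 rose and 2 fell (1507 to 2666 against 1670 to 1857 CPM). Of 9 tested of 11 markers of undifferentiated spermatogonia 6 rose and 1 fell (154 to 184 against 162 to 214 CPM). Of the marker genes of Leydig cells 3 of 6 rose, of peritubular myoid cells 3 of 5, of macrophages 4 of 6 and of endothelial cells 2 of 5, and 0 fell in these 4 lists. The summed Leydig level overlapped between the groups (205.8 to 366.5 against 245.7 to 523.9 CPM). The sums were 191 to 304 against 349 to 476 CPM for myoid cells and 90.8 to 123 against 170 to 216 CPM for macrophages. For endothelial cells they were 23.5 to 29.7 against 36.6 to 43.4 CPM. All counts of markers stand beside 30.7% of all tested genes that rose and 36.2% that fell (edgeR adjusted p under 0.05). Control replicate 3 stood apart from the other controls, with the highest spermatid level (1113 against 334 and 368 CPM) and the lowest level of early meiotic markers (1507 against 2567 and 2666 CPM). In such bulk RNA fewer cells of a type and less RNA per cell cannot be told apart, and the part of the cell mixture in the results below was not tested.

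The Polycomb genes did not move as a block. Between dsfb and control 14 of 37 rose, 14 fell and 9 did not pass (edgeR adjusted p under 0.05 over all tested genes), 8 of the rises and 9 of the falls being at least 2-fold (13.2% and 26.8% of all genes). In the same comparison 66.9% of all tested genes passed, 30.7% rising and 36.2% falling, so a share of called members of this size is near the background. The median log2 fold change of the 37 genes was 0.06, against 0.02 over all tested genes, and single members ranged from -2.58 for Phf1 to 1.51 for Scml4. The groups did not overlap for 31 of 37 members, against 74.7% of all genes. The balance of directions depended on the scaling of libraries: 19 members rose and 12 fell with library size as the only scaling, and 19 rose and 13 fell with upper-quartile scaling. Under these scalings the all-gene median stood 0.396 and 0.278 higher. Without control replicate 3, 15 members rose and 18 fell.

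**Figure D1:**
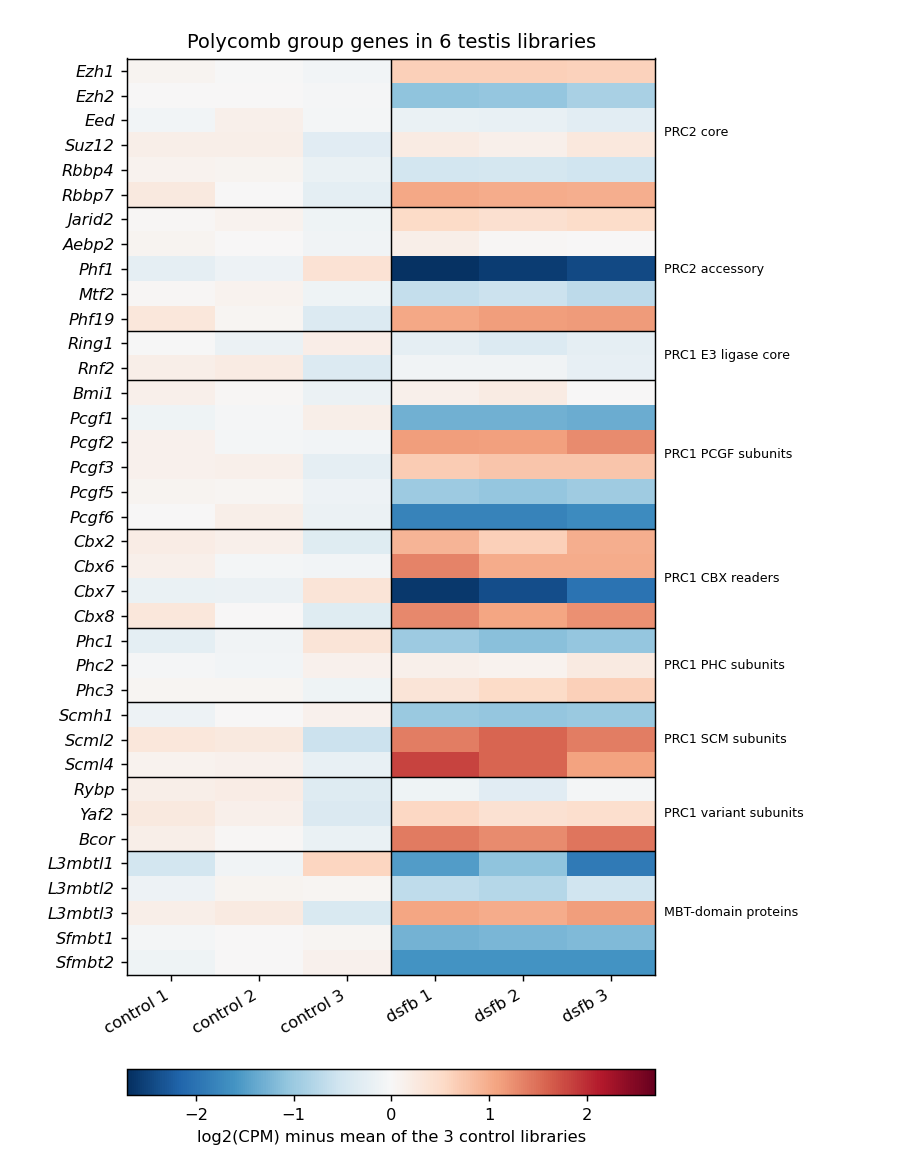
Heat map of the 37 Polycomb group genes (rows, grouped by role) in the 6 libraries (columns), coloured by log2 CPM minus the mean log2 CPM of the 3 control libraries. Phf1, Cbx7 and Pcgf6 are the darkest blue in dsfb and Scml4, Scml2 and Bcor the darkest red. Rises and falls stand side by side within 7 of the 9 roles.

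What the genes that rose and those that fell share beyond their family was looked for first in position. The 3 X-linked members, Rbbp7, Scml2 and Bcor, all rose (log2 0.99 to 1.39), and of the 766 tested X-linked genes 74% rose and 8.49% fell. Among the 34 autosomal members 11 rose and 14 fell, against 28.9% and 37.3% of all tested autosomal genes. Level in control was looked at as well, but control values enter both the call and that level. Members that rose therefore lean low in control, and those that fell lean high, by the sorting itself. On the scale of CPM per kilobase of exon, 12 of the 14 members that rose were below the median of the 37 genes in control (14.1), and 11 of the 14 that fell were above it. The medians in control were 4.05 for the members that rose and 21.7 for those that fell, and in dsfb they were 7.03 and 9.85. The members that rose thus had the lower median in dsfb too, with a smaller gap. No such split over all tested genes is given here, so whether level is a feature of these sets was not tested. In control replicate 3 every one of the 14 members that rose was lower than in both other controls, while 8 of the 14 that fell were highest there. Another 5 that fell were lowest there, as were 6 of the 9 members that did not pass. That library was thus farther from the dsfb libraries than the other controls for these 22 genes, and nearer for the 5 that fell and were lowest there. The shares of all genes that were highest or lowest in that library are not given here.

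Promoter sequence was the second feature. RefSeq windows of 250 bases before to 50 bases after a transcript start (GRCm38.p6) were matched for 32 of the 37 genes by symbol, and not for Pcgf1, Cbx2, Scml4, Rybp and Yaf2. The 250 bases before the start had a median GC content of 63.2% over the 44 member windows, against 52.4% over all 32851 windows, and a median of 18.5 CG pairs against 6. The windows of members that rose (66% GC, 20 CG pairs) and of members that fell (60.8% GC, 17.5 CG pairs) both had more CG pairs than the median window. All windows together belong to 27025 genes, more than the 19826 tested, and a gene can have several windows. Values over the windows of tested genes alone are not given here. As examples of CG content, the bases of a window before its own first annotated exon are given for some members. These are the 3 members with the largest falls, Phf1, Cbx7 and Pcgf6, and the 3 with the largest rises among those with a window, Scml2, Bcor and Cbx8. The stretches of Cbx7 and Scml2 precede a start inside the gene span of GENCODE M21 (79915807 to 79971119 and 161117193 to 161258213). All stretches are on GRCm38, 5′ to 3′ on the gene's strand, with every CG pair in capitals.
Phf1, chr17:26932877-26933051, plus strand: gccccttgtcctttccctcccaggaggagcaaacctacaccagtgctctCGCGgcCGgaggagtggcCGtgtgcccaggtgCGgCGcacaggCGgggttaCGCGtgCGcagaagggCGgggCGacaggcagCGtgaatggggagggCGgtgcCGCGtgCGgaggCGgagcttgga
Cbx7, chr15:79932769-79932896, minus strand: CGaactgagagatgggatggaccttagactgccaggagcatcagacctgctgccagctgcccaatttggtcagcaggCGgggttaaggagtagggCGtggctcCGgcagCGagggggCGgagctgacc
Pcgf6, chr19:47050907-47051156, minus strand: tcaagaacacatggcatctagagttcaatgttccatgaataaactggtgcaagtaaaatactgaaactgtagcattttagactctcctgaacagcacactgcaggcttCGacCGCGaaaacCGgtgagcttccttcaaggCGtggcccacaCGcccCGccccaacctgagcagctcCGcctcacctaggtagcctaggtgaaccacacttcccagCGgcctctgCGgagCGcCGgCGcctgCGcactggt
Scml2, chrX:161162500-161162749, plus strand: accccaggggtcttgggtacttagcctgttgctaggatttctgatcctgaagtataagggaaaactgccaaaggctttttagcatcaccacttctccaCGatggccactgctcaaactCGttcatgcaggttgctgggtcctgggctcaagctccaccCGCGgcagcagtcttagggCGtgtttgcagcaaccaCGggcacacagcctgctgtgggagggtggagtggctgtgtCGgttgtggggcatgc
Bcor, chrX:12160356-12160605, minus strand: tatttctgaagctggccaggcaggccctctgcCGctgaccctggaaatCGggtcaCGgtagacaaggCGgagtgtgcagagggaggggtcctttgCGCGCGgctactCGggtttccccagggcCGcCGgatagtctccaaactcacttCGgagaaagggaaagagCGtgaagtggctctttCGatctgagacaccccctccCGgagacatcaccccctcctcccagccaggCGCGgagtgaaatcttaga
Cbx8, chr11:119040970-119041163, minus strand: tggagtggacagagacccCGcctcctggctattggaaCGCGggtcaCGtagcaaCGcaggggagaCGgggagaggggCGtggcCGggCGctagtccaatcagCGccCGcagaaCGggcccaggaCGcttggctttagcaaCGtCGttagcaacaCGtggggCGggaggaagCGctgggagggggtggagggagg
These stretches hold 18 CG pairs for Phf1 in 175 bases, 6 for Cbx7 in 128, 14 for Pcgf6 in 250, 7 for Scml2 in 250, 16 for Bcor in 250 and 18 for Cbx8 in 194. Among the stretches shown the counts thus ranged from 6 to 18 for genes that fell and from 7 to 18 for those that rose, over unlike lengths. Windows of other members went beyond these counts. Scmh1, which fell, held 0 CG pairs in a window and 32 in another. Of the genes that rose, Pcgf2 held 5 and L3mbtl3 up to 37.

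Motifs of 3 kinds were searched on both strands of each 300-base window, and no member held more than 1 kind. TAACNG, the core recognised by MYB factors, was in 1 of 13 members that fell and 0 of 12 that rose, and 25.9% of all genes with a window held it. TGACGTCA, the cyclic AMP response element, was in 1 of the 12 that rose and 0 of the 13 that fell, against 2.03% of all genes. TTTCGCGC or TTTGGCGC, forms of the E2F site, were in 1 of the 13 that fell and 0 of the 12 that rose, against 0.929%. Over all members each kind was rare, and the 4 genes with a match are shown in 30 bases around it, with the match in capitals.
Phf1, chr17:26933062-26933091, plus strand: gggcggggcagcTAACGGatgtggcatggg
Aebp2, chr6:140626901-140626930, plus strand: gggtcccatctaCCGTTAgacctttgagat
Cbx8, chr11:119040924-119040953, minus strand: gggaggagaacTGACGTCAgcgggagagta
Ezh2, chr6:47595009-47595038, minus strand: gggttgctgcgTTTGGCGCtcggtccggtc
In Phf1 the match to TAACNG begins 53 bases before the RefSeq start, and in Aebp2 it lies on the opposite strand from base 29 of the transcript. In Cbx8 the match to TGACGTCA begins 29 bases before the start, and in Ezh2 the match to TTTGGCGC begins at base 4 of the transcript. All 4 lie in an exon of GENCODE M21.

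The catalytic subunits of PRC2 changed in opposite directions. Ezh2, the main H3K27 methyltransferase of dividing cells (ENSMUSG00000029687, chromosome 6, 47530139 to 47595341, minus strand), had 131, 130 and 126 CPM in the 3 control libraries, listed in order of replicate number here and below, against 61.2, 63.1 and 70.0 CPM in dsfb. The groups were far apart, and the fall was 1.99-fold (log2 -0.996, SE 0.08, edgeR adjusted p = 4.06e-05). Ezh1, its weaker paralog that is more prominent in cells that no longer divide (ENSMUSG00000006920, chromosome 11, 101191115 to 101226463, minus strand), was at 76.0, 70.7 and 68.5 CPM in control and at 112, 111 and 111 CPM in dsfb. All dsfb libraries were above all controls, a 1.55-fold rise (log2 0.64, SE 0.08, edgeR adjusted p = 0.000279).

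Because reads per exonic base can be compared between genes of one library, the share of each paralog was computed within its family, a value that does not depend on library scaling. Ezh2 made up 65.8%, 67.2% and 67.3% of the summed Ezh1 and Ezh2 level in the controls and 37.8%, 38.7% and 41.3% in dsfb. The more abundant EZH transcript was therefore Ezh2 in every control and Ezh1 in every dsfb library. The difference of -27.5 percentage points had a two-sided exact permutation p of 0.1, the smallest that 3 against 3 can give. Of the 34 shares computed over 12 gene sets (families, and Jarid2 with Aebp2), 32 had groups that did not overlap and reached that p (0.106 after Benjamini-Hochberg adjustment over the 34). Shares within a set add up to the whole, and in a pair of genes they mirror each other, so the 34 are not independent. No such count for other gene sets is given here.

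The scaffold subunits of PRC2 moved less. Suz12, which holds the complex together, was at 151, 150 and 109 CPM in control and at 158, 148 and 164 CPM in dsfb, overlapping groups with control replicate 3 as the lowest library (log2 0.20, SE 0.13, edgeR adjusted p = 0.223). Eed, which binds the methylated histone tail and stimulates the enzyme, was at 58.9, 68.6 and 59.8 CPM in control and at 54.7, 54.3 and 51.0 CPM in dsfb. Its groups did not overlap, yet the log2 change of -0.23 (SE 0.10) did not pass (edgeR adjusted p = 0.0682), and it passed with RLE scaling, with DESeq2 and without control replicate 1 or 3 (edgeR adjusted p = 0.0397 and 0.0102). With upper-quartile and library-size-only scaling the Eed value was above 0. Eed shares 6.82% of its exonic bases with E230029C05Rik on the opposite strand, which fell (log2 -3.11), and whether reads were counted by strand is not known here.

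The histone-binding subunits, which PRC2 shares with chromatin assembly and deacetylase complexes, parted as the EZH genes did. X-linked Rbbp7 was at 215, 179 and 148 CPM in control and at 367, 358 and 353 CPM in dsfb, a 1.99-fold rise (log2 0.99, SE 0.14, edgeR adjusted p = 0.000468). Autosomal Rbbp4 was at 596, 590 and 490 CPM in control and at 393, 398 and 384 CPM in dsfb, so that every dsfb library was below every control. This 1.43-fold fall (edgeR adjusted p = 0.00308) was lost with upper-quartile and with library-size-only scaling (edgeR adjusted p = 0.0776 and 0.363). Rbbp4 supplied 51.0 ± 2.55% of the summed RBBP level in control and 26.6 ± 0.378% in dsfb (SD, n = 3).

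Among the accessory subunits that steer PRC2 to its targets, Phf1 fell most of all 37 genes. Phf1, a Polycomb-like protein with a Tudor domain (ENSMUSG00000024193, chromosome 17, 26933052 to 26937908, plus strand), measured 102, 110 and 159 CPM in control against 19.1, 20.5 and 22.3 CPM in dsfb. Control replicate 3 was the highest, and without it the log2 change was -2.40 against -2.58 (SE 0.18, edgeR adjusted p = 1.51e-05) with all libraries, a 5.995-fold fall. Phf1 shares 39.3% of its exonic bases with Cuta on the opposite strand, and Cuta rose from 26.2 ± 2.24 to 36.8 ± 3.76 CPM (SD, n = 3).

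The other Polycomb-like genes did not follow Phf1 alike. Mtf2 fell 1.56-fold from 119 ± 8.76 to 76.7 ± 3.24 CPM (edgeR adjusted p = 0.000493), a call lost with library-size-only scaling (edgeR adjusted p = 0.0522). Phf19 was low throughout and rose from 1.41 ± 0.329 to 2.99 ± 0.126 CPM. As shares of the 3 Polycomb-like genes per exonic base, Phf1 went from 62.0 ± 6.97% to 29.7 ± 2.18% and Mtf2 from 37.5 ± 6.81% to 67.4 ± 2.27%. Per exonic base Mtf2 was therefore the leading Polycomb-like transcript in each dsfb library, and Phf1 in each control. By read counts without length, Mtf2 was ahead in control replicates 1 and 2 as well (2610 and 3075 against 2198 and 2674 for Phf1).

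Jarid2 and Aebp2 mark the other form of PRC2, which can bind ubiquitinated H2A. Jarid2 was at 122, 128 and 110 CPM in control and at 172, 161 and 169 CPM in dsfb, a 1.39-fold rise with groups apart (edgeR adjusted p = 0.00196). Aebp2 was at 90.1, 85.6 and 80.0 CPM in control and at 95.2, 86.9 and 85.3 CPM in dsfb, with overlapping groups and a log2 value near 0 (0.06, SE 0.09).

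**Figure D2:**
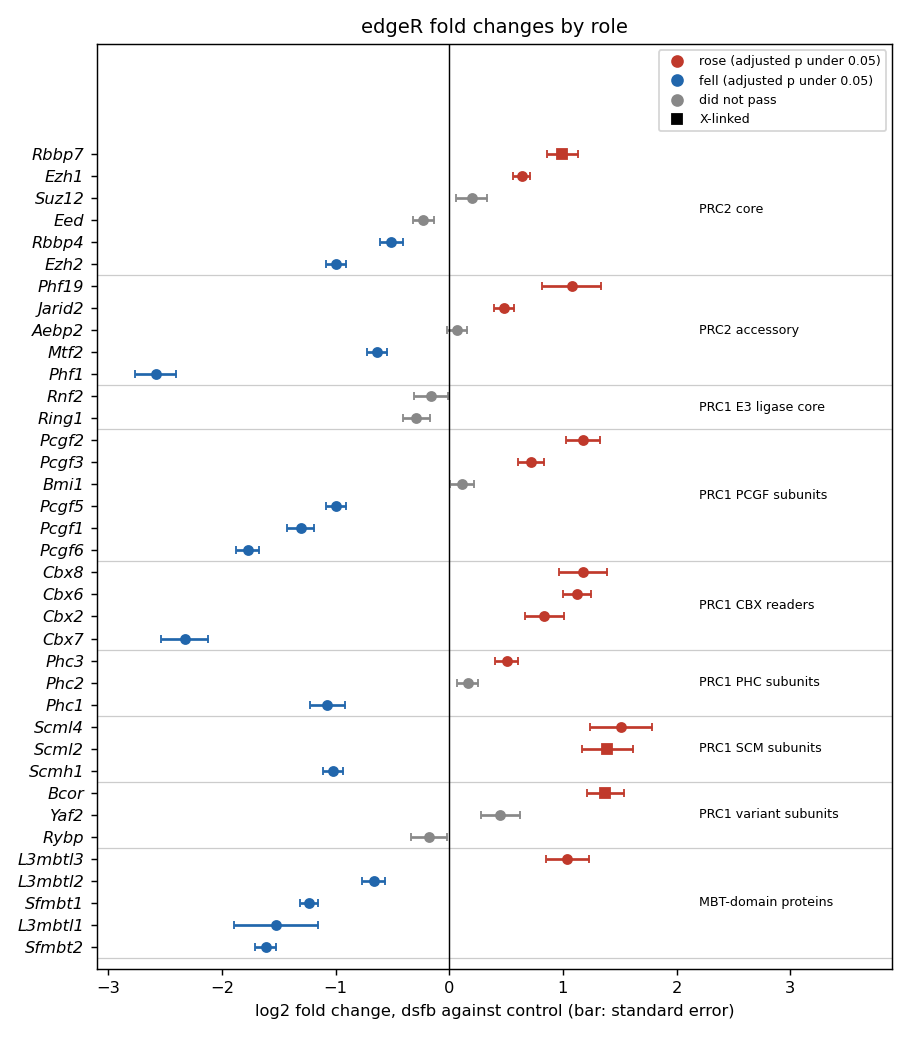
Log2 fold change of dsfb against control (x axis) for each of the 37 genes (y axis, by role), with bars for the standard error, red for genes that rose, blue for genes that fell and grey for genes that did not pass. Squares are X-linked. Phf1 (-2.58) and Cbx7 (-2.33) lie farthest to the left, and both RING genes are grey.

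Neither E3 ligase gene of PRC1 passed the test. Rnf2, the main H2A ubiquitin ligase, was at 167, 175 and 117 CPM in control and at 140, 141 and 130 CPM in dsfb, overlapping groups with control replicate 3 lowest. Its log2 change was -0.16 (SE 0.15, edgeR adjusted p = 0.369), or -0.35 without that library (edgeR adjusted p = 0.000469), and it was above 0 with upper-quartile and library-size-only scaling. Ring1 was at 41.6, 37.1 and 46.9 CPM in control and at 35.3, 32.4 and 35.1 CPM in dsfb (log2 -0.29, SE 0.12, edgeR adjusted p = 0.0603). Ring1 passed as lower with RLE scaling, with DESeq2 and without control replicate 2 or 3 (edgeR adjusted p = 0.0367 and 0.0491). Ring1 made up 24.1%, 21.2% and 33.9% of the RING level in control and 24.3%, 22.7% and 25.6% in dsfb, so the shares overlapped (two-sided exact permutation p = 0.9).

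The PCGF subunits, which define the kind of PRC1, moved in both directions. Pcgf6, the subunit of the variant complex that silences germ line genes in other tissues (ENSMUSG00000025050, chromosome 19, 47033617 to 47050906, minus strand), was at 172, 191 and 153 CPM in control and at 49.3, 48.9 and 52.5 CPM in dsfb. This was a 3.42-fold fall with groups far apart (log2 -1.77, SE 0.10, edgeR adjusted p = 5.87e-06). Pcgf1, of the variant complex with BCOR and KDM2B, fell 2.48-fold from 41.3 ± 4.25 to 16.7 ± 0.307 CPM. Pcgf5 fell 2.00-fold from 202 ± 15.4 to 101 ± 2.76 CPM, while its close paralog Pcgf3 rose 1.65-fold from 67.1 ± 9.62 to 111 ± 2.35 CPM.

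Of the PCGF subunits of canonical PRC1, 1 rose and 1 did not pass. Pcgf2 (MEL18) was at 9.73, 8.63 and 8.53 CPM in control and at 19.6, 19.3 and 21.8 CPM in dsfb, a 2.26-fold rise (edgeR adjusted p = 0.000337). Bmi1, needed for the upkeep of many stem cells, was at 154, 142 and 124 CPM in control and at 152, 162 and 140 CPM in dsfb, overlapping groups (log2 0.11, SE 0.11, edgeR adjusted p = 0.365). Together Bmi1 and Pcgf2 made up 33.7%, 30.6% and 29.9% of the summed PCGF level per exonic base in control and 52.7%, 53.9% and 50.7% in dsfb. Pcgf6 went the other way, from 28.4 ± 1.80% to 11.98 ± 0.746% of that sum.

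Among the 4 CBX readers of the 37 genes, which dock canonical PRC1 on H3K27 methylation, Cbx7 fell and the other 3 rose. Cbx7 (ENSMUSG00000053411, chromosome 15, 79915807 to 79971119, minus strand) was at 65.0, 66.5 and 93.5 CPM in control and at 12.2, 14.1 and 18.5 CPM in dsfb, with its highest value in control replicate 3. The fall was 5.02-fold (log2 -2.33, SE 0.21, edgeR adjusted p = 5.34e-05) and 1.54% of its exonic bases are shared with Apobec3, which rose (log2 1.39). Cbx6 was at 45.0, 39.4 and 39.2 CPM in control and at 104, 81.8 and 82.8 CPM in dsfb, a 2.18-fold rise (log2 1.12, SE 0.12, edgeR adjusted p = 0.000158). Cbx2, the family member whose loss is known to disturb male sex determination, had 21.8, 20.9 and 15.2 CPM in control and 35.8, 29.8 and 37.6 CPM in dsfb. It rose 1.79-fold with groups apart, and Cbx8 rose 2.26-fold from 7.01 ± 1.52 to 15.8 ± 1.28 CPM.

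Shares were taken of the summed level per exonic base of these 4 genes, which are not the whole family. Cbx7 supplied 46.2%, 49.4% and 62.2% of that sum in control and 7.61%, 10.4% and 11.9% in dsfb, a difference of -42.6 percentage points. The shares of Cbx2, Cbx6 and Cbx8 in dsfb were 34.9 ± 1.77%, 36.5 ± 3.60% and 18.6 ± 0.178%.

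**Figure D3:**
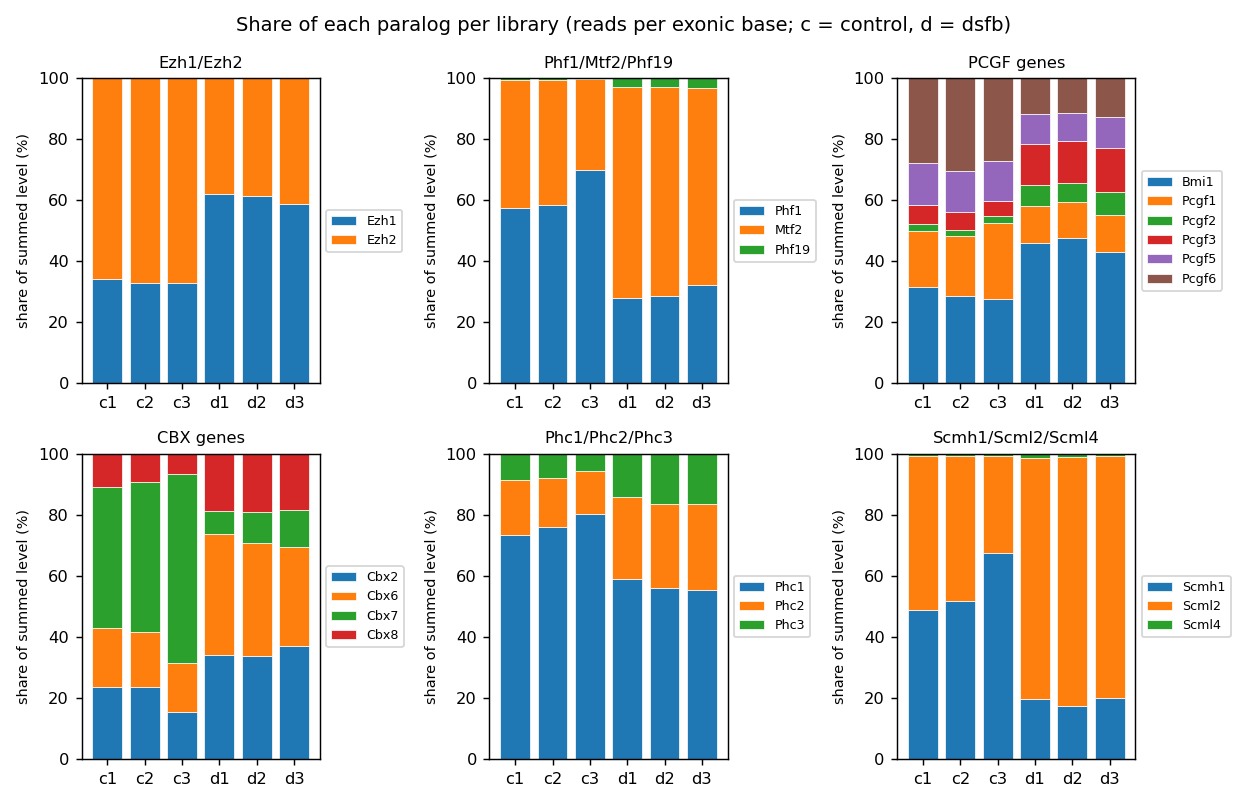
Share of each paralog (y axis, percent of the summed reads per exonic base) in each of the 6 libraries (x axis, c for control and d for dsfb) for 6 families, the CBX panel holding the 4 CBX genes of the 37. Cbx7 shrinks from 46.2 to 62.2% in the controls to 7.61 to 11.9% in dsfb, Ezh2 from at least 65.8% to at most 41.3%, and Scml2 grows to about 80%.

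The PHC and SCM subunits carry SAM domains, through which canonical PRC1 can polymerise and compact chromatin. Phc1, the most abundant of the PHC genes, was at 199, 224 and 304 CPM in control and at 120, 110 and 116 CPM in dsfb, a 2.10-fold fall (log2 -1.07, SE 0.16, edgeR adjusted p = 0.000661). Phc3 rose 1.42-fold from 73.7 ± 4.90 to 105 ± 10.1 CPM. Phc2 had 64.5, 62.4 and 71.3 CPM in control and 72.6, 70.9 and 78.1 CPM in dsfb, overlapping groups (edgeR adjusted p = 0.148), and passed as higher with library-size-only and upper-quartile scaling. Phc1 remained the leading PHC transcript per exonic base in every library, at 73.6 to 80.4% of the sum in control and 55.5 to 59.1% in dsfb.

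In the SCM group the germ line gene Scml2 rose and the widely expressed Scmh1 fell. X-linked Scml2, a germ-cell partner of PRC1 (ENSMUSG00000000037, chromosome X, 161117193 to 161258213, plus strand), measured 130, 126 and 69.6 CPM in control against 271, 312 and 271 CPM in dsfb. All dsfb libraries were above all controls, of which replicate 3 was much the lowest, and the rise was 2.62-fold (log2 1.39, SE 0.23, edgeR adjusted p = 0.00112), or log2 1.12 without that library. Scmh1 was at 159, 175 and 188 CPM in control and at 86.4, 83.7 and 86.0 CPM in dsfb, a 2.04-fold fall (edgeR adjusted p = 4.35e-05). Scml4 was low, with 1.63, 1.65 and 1.34 CPM in control and 5.44, 4.53 and 3.24 CPM in dsfb, and had the largest log2 rise of the 37 genes (1.51, SE 0.27). Scmh1 supplied 48.8%, 51.8% and 67.7% of the SCM sum per exonic base in control and 19.8%, 17.3% and 19.8% in dsfb, where Scml2 held 80.1 ± 1.52%.

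The adaptors of variant PRC1 gave small or uncertain differences, apart from Bcor. Rybp was at 73.3, 75.8 and 52.0 CPM in control and at 61.3, 53.1 and 63.6 CPM in dsfb, overlapping groups (log2 -0.18, SE 0.16, edgeR adjusted p = 0.342). Without control replicate 3 its log2 change was -0.36 (edgeR adjusted p = 0.00162), and with library-size-only and upper-quartile scaling it was above 0. Its paralog Yaf2 was at 32.4, 29.6 and 20.7 CPM in control and at 39.7, 36.0 and 37.1 CPM in dsfb. The groups of Yaf2 did not overlap, and its log2 change of 0.45 (SE 0.17) lay at the threshold (edgeR adjusted p = 0.0505), and passed without control replicate 1 or 3 (edgeR adjusted p = 0.036 and 0.034). X-linked Bcor, the corepressor of the PCGF1 complex, had 8.52, 7.76 and 6.72 CPM in control and 20.3, 18.5 and 20.8 CPM in dsfb. All dsfb libraries were above all controls, a 2.59-fold rise (edgeR adjusted p = 0.000235), while Pcgf1 fell.

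MBT domains are folds that bind weakly methylated lysines. Of the 5 genes listed under this role 4 fell and 1 rose, against 36.2% and 30.7% of all tested genes. Sfmbt2 (ENSMUSG00000061186, chromosome 2, 10370510 to 10595253, plus strand) measured 145, 159 and 171 CPM in control against 51.9, 51.6 and 51.3 CPM in dsfb. This 3.07-fold fall had the smallest adjusted p of the 37 genes (log2 -1.62, SE 0.09, edgeR adjusted p = 4.32e-06). Sfmbt1 was at 263, 274 and 286 CPM in control and at 114, 117 and 120 CPM in dsfb, a 2.35-fold fall (edgeR adjusted p = 8.79e-06). Since both SFMBT genes fell, Sfmbt1 changed little as a share of their sum (64.7 ± 0.943% against 70.5 ± 0.649%).

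Of the 3 L3MBTL genes among the 37, 2 fell and 1 rose, and L3mbtl4, from the list of other Polycomb genes, rose 1.84-fold. L3mbtl2, a partner of PCGF6 in its variant complex, had 74.3, 87.0 and 85.8 CPM in control and 51.3, 48.0 and 56.5 CPM in dsfb. It fell 1.59-fold (edgeR adjusted p = 0.000958), and 17.2% of its exonic bases are shared with Chadl on the opposite strand, which rose to 6.602 ± 0.981 CPM. L3mbtl1 was at 2.14, 2.85 and 4.54 CPM in control and at 1.07, 1.43 and 0.810 CPM in dsfb, a 2.87-fold fall (edgeR adjusted p = 0.00778) with the widest spread of the 37 genes among controls relative to its mean. L3mbtl3 rose 2.05-fold from 15.9 ± 3.71 to 32.7 ± 1.38 CPM. Per exonic base L3mbtl2 made up 85.2 ± 0.996% of the sum of the 3 genes in control and 70.6 ± 1.32% in dsfb. With L3mbtl4 added, a choice made after the values were seen, L3mbtl2 made up 63.1 ± 4.13% and 38.2 ± 2.19%. L3mbtl4 then led in each dsfb library (44.0 to 48.2%) and L3mbtl2 in each control.

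The order of levels differed between the groups. On the scale of CPM per kilobase of exon Rbbp4 (63.9 ± 6.76) and Rbbp7 (62.0 ± 11.5) led in control, followed by Phc1 (45.7 ± 10.4), Rnf2 (37.03 ± 7.67), Phf1 (35.5 ± 8.73) and Bmi1 (35.2 ± 3.82), and each of these overlapped the next in that order. In dsfb Rbbp7 (124 ± 2.48) stood alone at the top, and Scml2 (46.8 ± 3.88) and Rbbp4 (44.8 ± 0.818) came next and overlapped. Scml2 moved from rank 14 to rank 2, Phf1 from rank 5 to rank 28 and Pcgf6 from rank 7 to rank 20 of 37. Scml4, Phf19, L3mbtl1 and Bcor took the 4 lowest ranks in both groups. Summed over roles, PRC2 transcripts per kilobase were at 277 ± 17.3 in control and 285 ± 3.14 in dsfb, and PRC1 transcripts at 321 ± 11.7 and 282 ± 2.58. The PRC2 sum holds Rbbp4 and Rbbp7, which other complexes share, and its parts moved apart. Its core genes summed to 199 ± 23.3 in control and 239 ± 2.61 in dsfb, and its accessory genes to 77.7 ± 6.01 and 46.2 ± 0.522. The MBT genes summed to 65.4 ± 3.81 in control and 31.5 ± 1.03 in dsfb. All these sums rest on TMM scaling, and sums with another scaling are not given here.

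**Figure D4:**
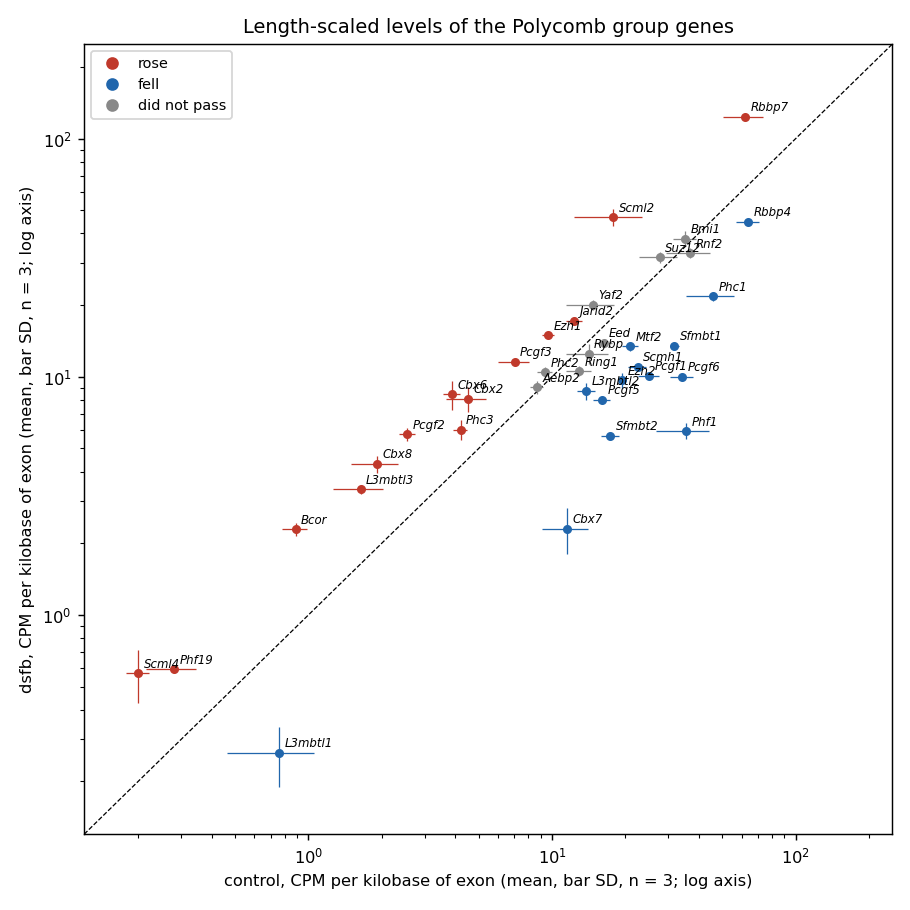
Mean level of each of the 37 genes in dsfb (y axis) against control (x axis), both in CPM per kilobase of exon on log axes, with bars for the SD of 3 libraries and the line of equality. Genes that rose lie mostly at the low end in control, with Rbbp7 and Scml2 as high exceptions, and Phf1 and Cbx7 lie farthest below the line.

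Other genes of Polycomb complexes also moved both ways. Of 31 such genes 12 rose, 12 fell and 7 did not pass (median log2 fold change 0.13). Among all tested genes 30.7% rose and 36.2% fell. The X-linked genes of this list all rose, as did 74% of all tested X-linked genes. The split depended on scaling, with 18 rising and 9 falling by library size only and 16 and 11 with upper-quartile scaling. The genes with the smallest p were Csnk2b, Hdac1, Lcorl and Hcfc1. Csnk2b, the regulatory subunit of casein kinase in PCGF5 complexes, fell 4.83-fold from 387 ± 58.4 to 80.1 ± 1.89 CPM. Hdac1, a histone deacetylase, fell 2.06-fold and Lcorl, a paralog of a PRC2 partner, 2.97-fold. X-linked Hcfc1, which works with the BAP1 deubiquitinase, rose 2.30-fold from 138 ± 13.0 to 318 ± 28.9 CPM. Lcorl and Csnk2b share exonic bases with genes on the opposite strand.

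The 3 genes listed as demethylases of the PRC2 mark all rose. Among all tested genes 30.7% rose, and among tested X-linked genes 74%. Kdm6b was at 67.1, 59.0 and 65.4 CPM in control and at 123, 115 and 127 CPM in dsfb, a 1.90-fold rise (edgeR adjusted p = 7.48e-05). X-linked Kdm6a rose 2.08-fold from 29.8 ± 6.60 to 62.0 ± 1.86 CPM and its Y-linked homolog Uty 2.603-fold from 16.5 ± 5.23 to 43.1 ± 2.77 CPM. Kdm6b shares exonic bases with the antisense gene Kdm6bos.

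Developmental genes known as Polycomb targets elsewhere moved both ways. Of 68 listed, 35 passed the filter on low counts, 12 rose and 7 fell, and 33 were too low to test. Of the 12 that rose, 4 reached the count minimum in fewer than 3 control libraries, and 1 of the 7 that fell did so in dsfb. Genes let through by their high group had to differ, so these counts are not read against the 30.7% and 36.2% of all genes. In the Hox clusters 19 of 39 genes were tested, with 6 rises and 3 falls. Hoxa4, a homeobox gene transcribed in germ cells, fell 20.3-fold from 49.9 ± 3.25 to 2.46 ± 0.496 CPM and Hoxa3 5.07-fold, Hoxd13 rose from 0.150 ± 0.0728 to 12.5 ± 1.68 CPM and Hoxd9 2.98-fold. Hoxa3 and Hoxa4 share exonic bases with antisense genes. Outside the Hox clusters 16 of 29 were tested and 6 rose and 4 fell. Irx5 fell 4.24-fold from 6.84 ± 0.665 to 1.61 ± 0.251 CPM and Sox17, an endoderm and endothelial factor that overlaps a gene on the opposite strand, 4.28-fold. Foxa2 rose from 0.158 ± 0.122 to 3.39 ± 1.04 CPM. Wt1, itself a Sertoli marker, rose 2.00-fold.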

How the data were processed

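RNA of 6 testes samples, 3 per group, was taken up in TRIzol, and the library kit was NEBNext Ultra, per the labels' protocols. The authors deposited raw read counts per gene. Per the submitters' processing notes, STAR 2.6.0 and the build mm10 were used. For the counting tool, its annotation and its strand setting, the sources used here give nothing. Without strand, reads of the 12 members that share exonic bases with a gene on the opposite strand cannot be assigned with certainty. Cbx6 overlaps a gene on its own strand.

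Symbols, positions and exon lengths came from GENCODE M21 (GRCm38), which lacks 260 of the 55487 identifiers (0.0238% of counts). Of the symbols in the other lists Ezhip was not matched. The whole table was fitted with edgeR 4.0.16 in R 4.3.3 (filterByExpr, TMM, group as the only term, glmQLFit and glmQLFTest, prior count 0.125). P-values were Benjamini-Hochberg adjusted over 19826 genes, with a threshold of 0.05. CPM are on TMM-scaled library sizes. Each SE was derived by dividing the size of the log2 value by the root of its F statistic. Levels between genes are CPM per kilobase of the union of exons. Paralog shares were compared by two-sided exact permutation (scipy 1.17.1). The design says that the testes were from different mice.

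The members and all lists were chosen with earlier results of these data known. By the rule for named genes, every member is reported, and of each other list the up to 4 genes with the smallest p. The fit was tested on simulated counts before use. It recovered 2 of 62 changes of 1.5-fold, 27 of 70 of 2-fold and 68 of 68 of 4-fold. Of 18717 unchanged genes it called 2. The simulation had a fixed dispersion that was not estimated from these libraries, so these rates do not carry over to the data. No replicate libraries agreed within sampling noise. Alternatives were other scalings (RLE, upper quartile, library size, TMM on autosomal genes), no filter or a mean of at least 1 CPM, DESeq2 1.42.0, limma-voom (limma 3.58.1), a replicate block, leaving out each library and, for shares, other lengths.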

Additional observations from a re-analysis of the deposited data

How the results depend on the processing

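All 28 members that passed kept their direction and call without each single library in turn, with RLE and autosomal TMM scaling, with no filter on low counts or a mean of at least 1 CPM, with DESeq2, with limma-voom and with the replicate block. With upper-quartile scaling 27 did (Rbbp4 was lost) and with library-size-only scaling 26 (Rbbp4 and Mtf2 were lost); the cause was not tested. Calls were gained among the 9 others. Suz12, Aebp2, Bmi1, Phc2 and Yaf2 rose with upper-quartile and library-size-only scaling, Yaf2 also with autosomal TMM, a mean of at least 1 CPM and limma-voom, Eed and Ring1 fell with RLE scaling and DESeq2, Eed fell and Yaf2 rose without control replicate 1, Ring1 fell without control replicate 2, and Eed, Ring1, Rnf2 and Rybp fell and Yaf2 rose without control replicate 3.

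The median log2 fold change of the 37 genes, 0.06 with all libraries, was -0.024 with RLE scaling and with DESeq2, 0.342 with upper-quartile scaling and 0.457 with library-size-only scaling, and it ranged from -0.008 to 0.109 when 1 library was left out. The sign turned only in members that had not passed. With upper-quartile scaling the log2 values were 0.051 for Eed, 0.115 for Rnf2 and 0.10 for Rybp, and with library-size-only scaling 0.168 for Eed, 0.108 for Ring1, 0.228 for Rnf2 and 0.215 for Rybp. Aebp2 was at -0.024 with RLE scaling and with DESeq2, -0.007 with no filter and -0.008 without control replicate 3. Of the 34 shares, all kept the direction of their difference with another length or none. The order of Phf1 and Mtf2 in control replicates 1 and 2 did turn with no length correction. The 3 L3MBTL shares kept their direction with L3mbtl4 added, an alternative chosen after seeing the data. Ring1 and Rnf2 turned without control replicate 3, and over the 6 omissions the differences ranged from -4.78 to 1.53 points for Ring1 and from -1.53 to 4.78 points for Rnf2. An omission leaves 3 against 2 libraries, so the share tests cannot pass there either.

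Replicate numbers are shared by the groups, and the design speaks of 3 pairs of testes from different mice without saying that a number marks a pair of animals. The deviations of same-numbered libraries correlated at 0.0709, 0.0607 and 0.116, so not every pair was above 0.1, although each library correlated best with its own number. With the replicate block 15 members rose and 14 fell, and 13431 genes passed in place of 13256; Yaf2 was the only member whose call changed. Depth limits the low members, Scml4, Phf19 and L3mbtl1, at a few CPM.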
